A study of Mus musculus with 2 samples.

Results

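The miRNAs encoded inside the 4 mouse Hox clusters, miR-10a, miR-10b, miR-196a, miR-196b and miR-615, were measured in cultured fibro-adipogenic progenitors (FAPs), the mesenchymal cells of skeletal muscle that can become adipocytes or fibroblasts. Members were chosen by name, taking every arm, and 10 of the 628 listed miRNAs belong to them. The cells were Sca1-positive FAPs sorted from skeletal muscle of wild-type C57Bl/6 mice, grown to near confluence and then switched to another medium for 24 h. In the ADM library the cells were in adipogenic differentiation medium; the sources used here do not give its composition. In the BM library they were in basal medium, DMEM with 10% horse serum. Each medium gave 1 library, and the labels do not say how many animals or cultures it came from. The comparison asks how the miRNAs of FAPs differ early after the change to adipogenic medium, and each difference below is one between 2 libraries.

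Hox genes encode transcription factors that give cells their position along the body axis, and mesenchymal cells of adult tissues keep much of the Hox expression of the body region they came from. The miRNAs of the clusters are transcribed among these genes, and several of them repress Hox mRNAs. miR-10 and miR-196 are the conserved pair: miR-10 genes sit just upstream of a Hox4 gene, and miR-196 genes between a Hox9 and a Hox10 gene or in the place where the latter is missing. miR-615 lies in an intron of Hoxc5. A miRNA pairs with its targets mainly through its seed, bases 2 to 8 counted from the 5′ end.

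The mature sequences (RefSeq, GRCm38.p6) show which members can share targets and which can share reads. All 10 rows matched by name, in the files mmu-miR-10a-5p, mmu-miR-10b-5p and so on. Capitals mark the seed.
miR-10a-5p: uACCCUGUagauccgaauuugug
miR-10b-5p: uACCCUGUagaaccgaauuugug
miR-196a-5p: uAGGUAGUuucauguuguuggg
miR-196b-5p: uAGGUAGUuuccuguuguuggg
miR-615-3p: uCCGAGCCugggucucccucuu
miR-196a-2-3p: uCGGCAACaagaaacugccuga
miR-615-5p: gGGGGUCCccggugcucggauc

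The 5p arms of miR-10a and miR-10b share a seed and are identical at 22 of 23 bases, the difference being U12A from miR-10a to miR-10b. The 5p arms of miR-196a and miR-196b also share a seed and are identical at 21 of 22 bases, with A12C from miR-196a to miR-196b; positions count from 1 at the 5′ end. Of the 516 of 628 listed rows that had a sequence by name, no other row carried either seed, and the seeds of the other members were each held by 1 row. The sources used here do not say how reads were assigned that match both miRNAs of a pair or end before the differing base, so the split within each pair is less certain than its sum.

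The hairpins lie in all 4 clusters (GENCODE M21, GRCm38). Places in introns, in exons or between genes are given for the strand of the hairpin only, and antisense transcripts were not considered. Mir10a is on chromosome 11 at 96317165-96317274 (plus strand), between genes, 992 bases before Hoxb4. Mir10b is on chromosome 2 at 74726070-74726137 (plus strand), within introns of 3 transcripts of Hoxd3 and Hoxd4. Mir196b is on chromosome 6 at 52230081-52230165 (minus strand), where 3 Hoxa9 transcripts run across it and 2 of them, Hoxa9-204 and Hoxa9-205, have an exon over it. Mir615 is on chromosome 15 at 103014910-103015001 (plus strand), in an intron of Hoxc5. The 5p arm of miR-196a has 2 sources with the same mature sequence: Mir196a-1 on chromosome 11 at 96265164-96265265 (plus strand), between genes and 6191 bases before Hoxb9, and Mir196a-2 on chromosome 15 at 102973350-102973434 (plus strand), in an intron of the long transcript Hoxc5-202, between Hoxc10 and Hoxc9. Reads of miR-196a-5p therefore cannot be given to the HoxB or the HoxC cluster, whereas miR-196a-2-3p comes from the HoxC hairpin.

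**Figure D1:**
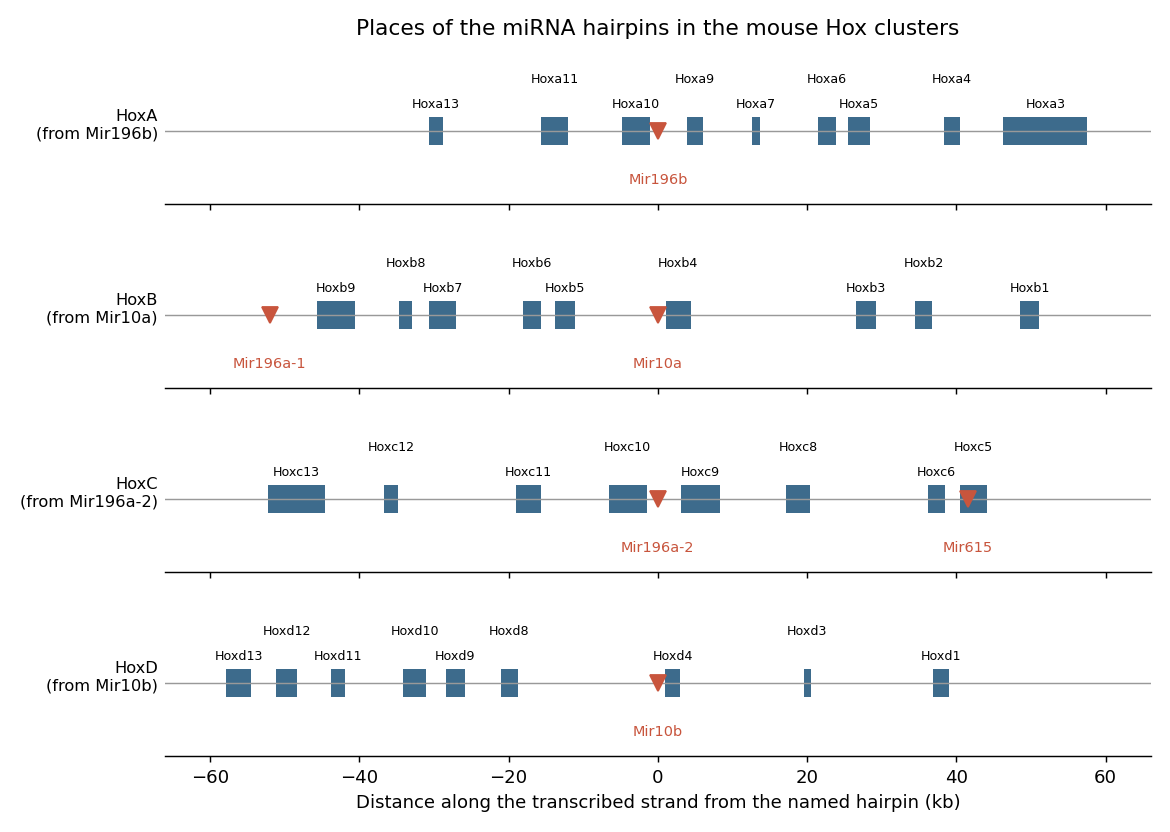
Hairpins (red triangles) and Hox genes (blue bars, the shortest coding transcript of each gene in GENCODE M21) within 60 kb in the 4 clusters, with distance in kb from the named hairpin along the transcribed strand on the x axis. Mir10a and Mir10b sit just before Hoxb4 and Hoxd4, and Mir615 lies within Hoxc5. Mir196b lies between Hoxa10 and Hoxa9, Mir196a-2 between Hoxc10 and Hoxc9, and Mir196a-1 before Hoxb9.

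The percent of reads deposited for each miRNA was turned back into reads. The deposited 100% came to 790617 reads for ADM and 755193 for BM. On this scale 1 read equals 1.26 RPM in ADM and 1.32 RPM in BM (the percent value times 10000). The listed miRNAs held 99.90% of these reads in ADM and 99.91% in BM. Shares of a library given here are shares of these reads, nearly all given to listed miRNAs, and need not be shares of all reads sequenced. Intervals are 95% exact Clopper-Pearson intervals of the reads. They cover the counting of reads only and hold nothing of the spread between cultures. Without molecular identifiers 2 reads may copy the same molecule, so the intervals can be too narrow even for the counting of molecules.

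As a group the Hox-cluster miRNAs made up about the same share of both libraries. The 10 rows held 39399 reads in ADM, 4.98% of the library (4.94 to 5.03%), and 38306 reads in BM, 5.07% (5.02 to 5.12%), a ratio of 0.982 (0.969 to 0.996). The side of 1 on which this ratio falls is not stable: it was 0.915 with scaling by the trimmed mean of M values (TMM) and 1.03 with median ratio scaling. Without miR-10b-5p, which alone took 69.7% of the group's reads in ADM and 73.3% in BM, the other 9 rows had a ratio of 1.12 (1.09 to 1.15).

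A miRNA was called apart when its mean over both libraries was at least 10 RPM and log2((ADM + 1)/(BM + 1)) in RPM, the log2 ratio below, was at least 1 in size. By that rule 0 of the 7 Hox-cluster miRNAs above the minimum were called and 7 were not, while 31.2% of all 337 listed miRNAs above the minimum were (36 higher and 69 lower in ADM). The median log2 ratio was -0.01 over the 7 and -0.02 over the 337, and the median size of the ratio, sign aside, was 0.22 over the 7 and 0.61 over the 337. With 1 library per medium there is no p-value, and a ratio short of 2-fold does not show that a miRNA did not differ.

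**Figure D2:**
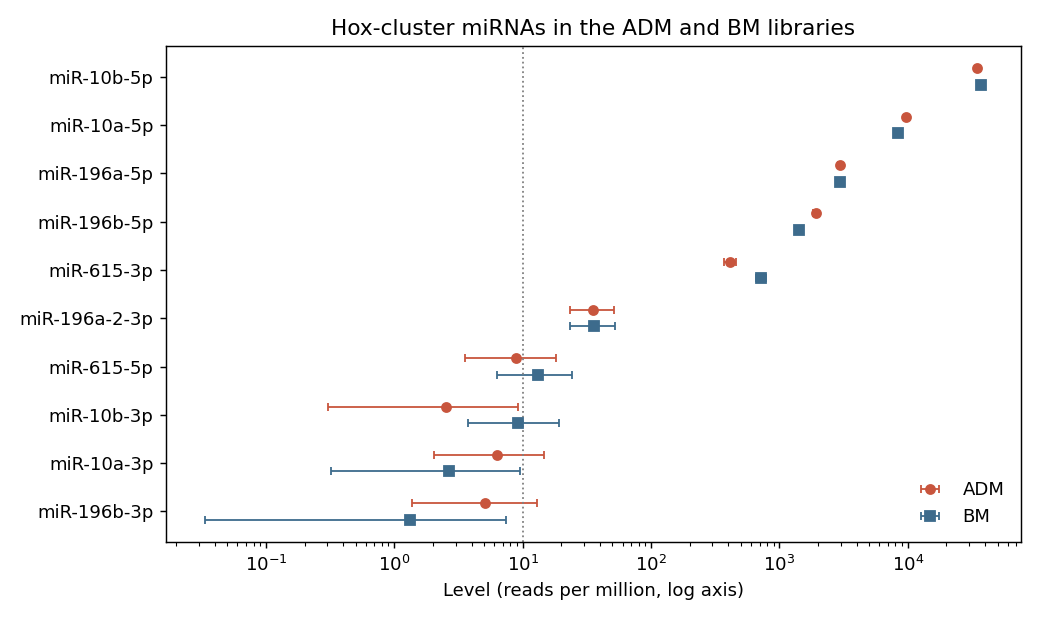
Level of each Hox-cluster miRNA in RPM (log axis) in the ADM library (red circles) and the BM library (blue squares). Bars are 95% exact counting intervals and the dotted line is the minimum of 10 RPM, which was applied to the mean of both libraries. miR-10b-5p leads with 34717 RPM in ADM and 37201 RPM in BM. The 3p arms of miR-10 and miR-196b lie below the line in both libraries, and miR-615-5p in ADM only (8.85 RPM).

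The miR-10 family was by far the most abundant. miR-10b-5p, known in human cells for repressing HOXD10, had 27448 reads in ADM, 3.47% of the library (3.43 to 3.51%), and 28094 reads in BM, 3.72% (3.68 to 3.76%). It was the ninth most abundant listed miRNA by mean level, at rank 9 in ADM and 8 in BM. Its ratio was 0.933 (0.918 to 0.949), a log2 ratio of -0.10.

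miR-10a-5p, encoded upstream of Hoxb4, had 7714 reads in ADM, 0.976% (0.954 to 0.998%), and 6318 reads in BM, 0.837% (0.816 to 0.857%). It held rank 25 in ADM and 26 in BM. The ratio was 1.17 (1.13 to 1.21), a log2 ratio of 0.22. The log2 ratios of both miR-10 miRNAs kept their signs under TMM and median ratio scaling (-0.20 and -0.036 for miR-10b-5p, 0.12 and 0.29 for miR-10a-5p).

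The sum of both 5p arms, the rows found to carry the miR-10 seed, differed little, at 35162 reads or 4.45% of ADM (4.40 to 4.49%) and 34412 reads or 4.56% of BM (4.51 to 4.60%). The sum was not computed with other scaling, and TMM shifts log2 ratios by -0.10 and median ratio scaling by 0.06. The split between miR-10a-5p and miR-10b-5p differed more than the sum. miR-10a-5p made up 21.9% of the pair in ADM (21.5 to 22.4%) and 18.4% in BM (17.95 to 18.8%), so the ratio of miR-10a to miR-10b was 1.25 times as high in ADM (1.20 to 1.30). This split does not depend on the scaling of the libraries. It does rest on the assignment of reads between sequences that differ at 1 base.

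The miR-196 family was less abundant, and here too the rarer form of the pair took a larger share in ADM. miR-196a-5p had 2354 reads in ADM, 0.298% (0.286 to 0.310%), and 2236 reads in BM, 0.296% (0.284 to 0.309%). The ratio was 1.01 (0.949 to 1.07), with an interval on both sides of 1; its log2 ratio was 0.01, -0.095 with TMM and 0.07 with median ratio scaling.

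miR-196b-5p, from the HoxA cluster, had 1511 reads in ADM, 0.191% (0.182 to 0.201%), and 1070 reads in BM, 0.142% (0.133 to 0.150%). It was 1.35-fold higher in ADM (1.25 to 1.46; log2 ratio 0.43), the highest ratio of the 7 members above the minimum, and stood at rank 50 in ADM and 60 in BM. It made up 39.1% of the 3865 miR-196 5p reads in ADM (37.6 to 40.7%) and 32.4% of the 3306 in BM (30.8 to 33.99%), so the ratio of miR-196b to miR-196a was 1.34 times as high in ADM (1.22 to 1.48). Summed, both miR-196 5p arms took 0.489% of ADM reads (0.474 to 0.504%) and 0.438% of BM reads (0.423 to 0.453%), a ratio of 1.12 (1.07 to 1.17). This summed ratio was not computed with other scaling, and TMM shifts log2 ratios by -0.10 and median ratio scaling by 0.06.

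**Figure D3:**
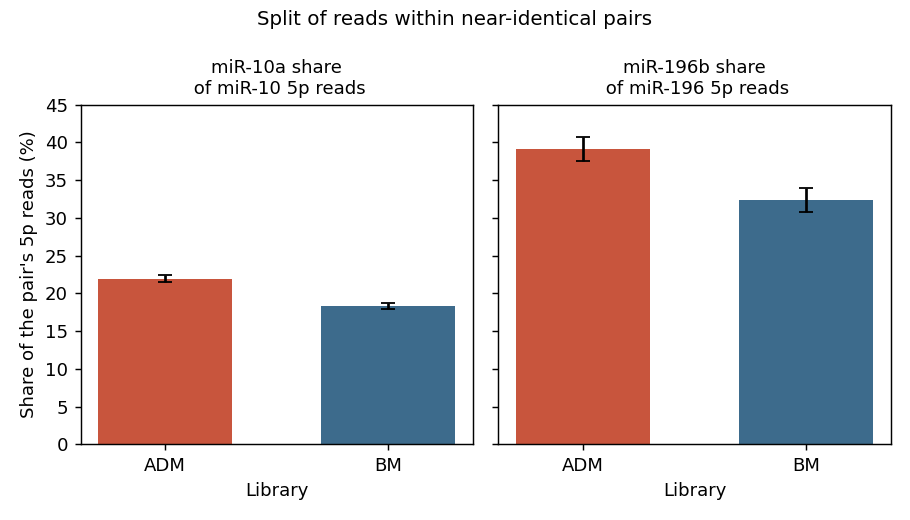
Share of 5p reads within each near-identical pair (y axis, percent) in the ADM library (left, red) and the BM library (right, blue), with 95% exact counting intervals and 1 library per bar. miR-10a made up 21.9% of the miR-10 pair in ADM and 18.4% in BM; miR-196b made up 39.1% of the miR-196 pair in ADM and 32.4% in BM.

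miR-615 was the member that differed most among those above the minimum, and it was lower in ADM. miR-615-3p had 326 reads in ADM, 0.0412% (0.0369 to 0.0460%), and 541 reads in BM, 0.0716% (0.0657 to 0.0779%). It was 1.74-fold lower in ADM (1.51 to 1.999), a log2 ratio of -0.80, and its rank was 102 in ADM and 83 in BM. It passed a 1.5-fold threshold, as did 53.1% of the 337 listed miRNAs, and no other member did. miR-615-5p had 7 reads in ADM and 10 in BM, a ratio of 0.669 whose interval (0.216 to 1.95) spans 1. The genomic neighbour on the HoxC cluster, miR-196a-2-3p, had 28 reads in ADM and 27 in BM, a ratio of 0.991 (0.563 to 1.75).

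Of the 7 members above the minimum, the counting interval of the ratio left out 1 for 4, namely miR-10b-5p, miR-10a-5p, miR-196b-5p and miR-615-3p, against 203 of the 337 listed. The 7 stood in the same order of level in both libraries. Levels compare reads only, since small RNA ligation favours some sequences over others.

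**Figure D4:**
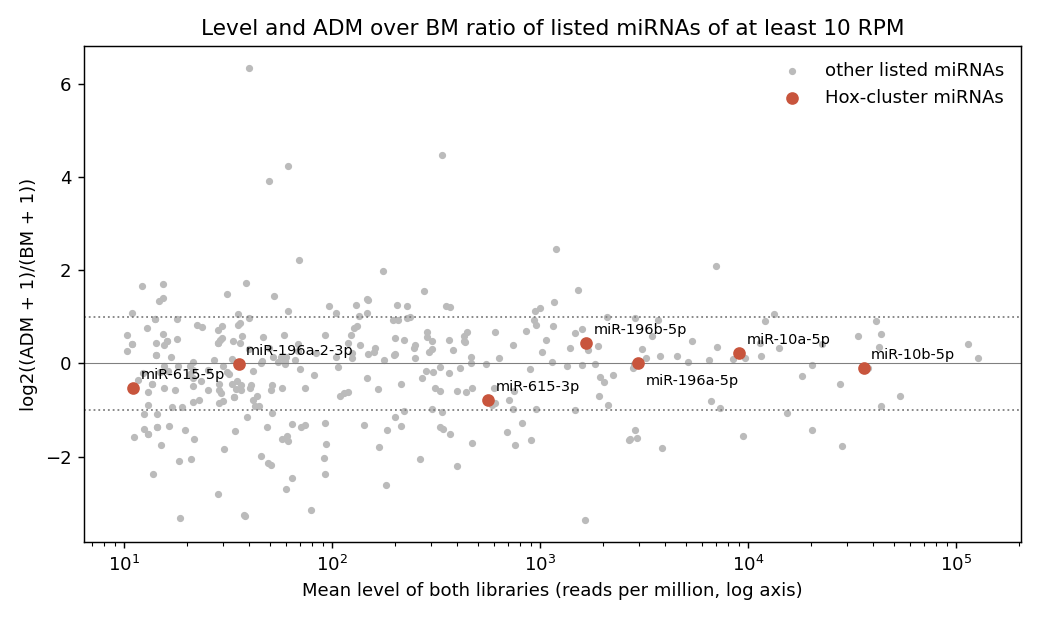
Mean level of both libraries in RPM (x, log axis) against log2((ADM + 1)/(BM + 1)) (y) for the 337 listed miRNAs of at least 10 RPM, with the 7 Hox-cluster miRNAs in red and named. Dotted lines mark 2-fold; the red points run from -0.80 for miR-615-3p to 0.43 for miR-196b-5p and all lie between the lines.

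The miR-10 and miR-196 5p arms were set beside the other abundant miRNAs. Of 72 listed miRNAs with a mean of at least 1000 RPM, 22.2% were at least 2-fold apart and the median size of the log2 ratio was 0.44. Within these 72, 1 miRNA had a log2 ratio nearer to 0 than miR-196a-5p, 11 than miR-10b-5p, 19 than miR-10a-5p and 34 than miR-196b-5p. In mean level, above miR-10b-5p stood let-7f-5p (log2 ratio 0.36), miR-92a-3p (-0.09) and miR-143-3p (0.90), and below it let-7c-5p (0.60), miR-127-3p (-1.77) and miR-199a-3p (-0.44), whose row also names miR-199b-3p. Around miR-10a-5p, let-7a-5p (0.43), miR-30d-5p (0.13) and miR-100-5p (-1.55) stood above it and miR-34c-5p (0.09), miR-199a-5p (-0.95) and miR-151-3p (0.36) below.

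One arm of each hairpin held nearly all of its reads. For miR-10b the 3p arm had 2 reads in ADM and 7 in BM, and the 5p arm held 99.99% of the hairpin's reads in ADM and 99.98% in BM. miR-10a-3p had 5 reads in ADM and 2 in BM, and miR-196b-3p 4 in ADM and 1 in BM. These 3 rows lay below the minimum, and their ratios were not compared. Over both libraries the major arm held 99.98% for miR-10b and 99.95% for miR-10a, ranks 2 and 4 of the 66 hairpins with both arms listed under 1 name and at least 1000 reads, whose median was 99.3%. For miR-196b it held 99.8%, rank 16.

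miR-615 was the exception in its arm: the 3p arm held 97.9% of its reads in ADM (95.7 to 99.2%) and 98.2% in BM (96.7 to 99.1%). The 5p minus 3p difference of log2 ratios was 0.26 for miR-615 (-1.14 to 1.67). For miR-196a, whose 5p reads may come from either hairpin while the 3p row comes from Mir196a-2, it was 0.02 (-0.75 to 0.79). Both intervals include 0 and are wide, as they rest on 7 to 28 reads of the minor arm.

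The nearest sequence relatives of miR-10 were lower in ADM by about 2-fold in sum, while miR-10 was not. miR-99 and miR-100 descend from the same ancestral family and lack 1 base within the seed. The sequences show the shift, with bases 2 to 8 in capitals.
miR-10a-5p: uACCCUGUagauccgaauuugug
miR-100-5p: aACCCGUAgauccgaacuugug
miR-99a-5p: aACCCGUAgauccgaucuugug
miR-99b-5p: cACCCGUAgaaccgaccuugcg

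With the base at position 6 of miR-10a-5p removed, 20 of the 22 bases of miR-100-5p are the same, 19 of miR-99a-5p and 17 of miR-99b-5p. miR-100-5p had 3824 reads in ADM and 10691 in BM, and miR-99b-5p, the most abundant of its list, 2.999% of ADM and 5.68% of BM reads (log2 ratio -0.92). Together the 3 relatives held 3.63% of ADM reads (3.59 to 3.67%) and 7.33% of BM reads (7.27 to 7.39%), a ratio of 0.495 (0.488 to 0.502), beside 0.976 (0.962 to 0.991) for the miR-10 pair. Of the 10 arms above the minimum in the whole miR-99, miR-100 and miR-125 list, 3 were at least 2-fold lower in ADM. In that list 0 were higher and 7 neither, while 20.5% of the 337 listed miRNAs were lower and 10.7% higher. The 3 were miR-100-5p (log2 ratio -1.55), miR-125b-5p (-1.44) and miR-125a-5p (-1.07), and miR-125 is not among the sequence relatives shown above. Both miR-99b-5p (-0.92) and miR-99a-5p (-0.69) were neither. The median log2 ratio of this list was -0.81. Whether this list and the Hox-cluster list differ beyond the spread of cultures cannot be tested with 1 library each.

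The miR-196 seed also lies, moved by 1 base, inside let-7, a large family of differentiation-associated miRNAs. Capitals mark the shared run of letters, bases 2 to 8 of miR-196 and 3 to 9 of let-7.
miR-196a-5p: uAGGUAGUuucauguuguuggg
let-7f-5p: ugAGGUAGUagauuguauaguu
let-7c-5p: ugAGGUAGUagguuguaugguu

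The run is held by 8 of the 9 let-7 and miR-98 5p rows, let-7e-5p being the exception, and in all by 10 of the listed rows with a sequence. The let-7 and miR-98 5p arms held 14.2% of ADM reads (14.1 to 14.3%) and 10.93% of BM reads (10.86 to 11.004%), a ratio of 1.30 (1.29 to 1.31). Of 17 arms of that list above the minimum, 1 was at least 2-fold higher, 0 lower and 16 neither, beside the same 10.7% higher and 20.5% lower of the 337. The median log2 ratio of the let-7 list was 0.36. The most abundant was let-7f-5p, with 4.79% of ADM reads and 3.73% of BM reads.

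**Figure D5:**
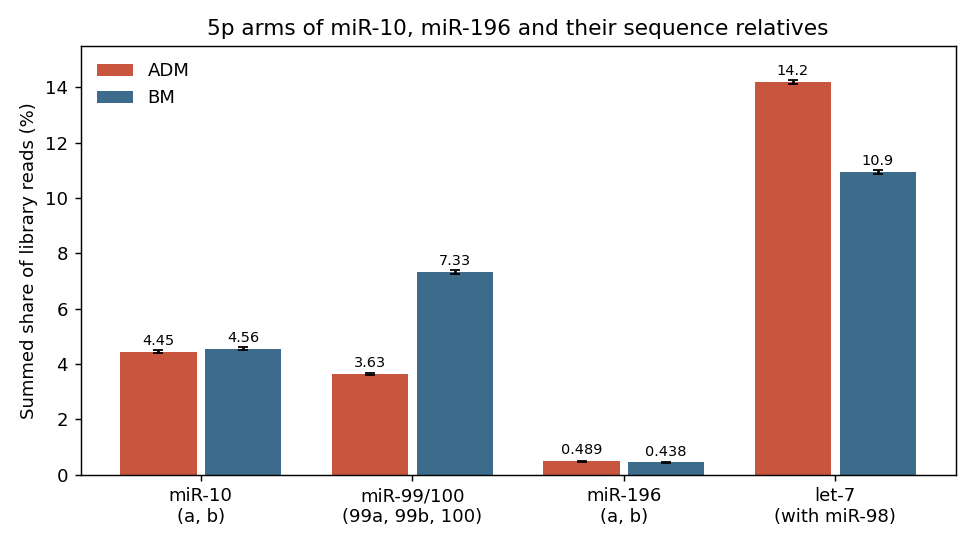
Summed share of library reads (y axis, percent) of the 5p arms of miR-10, of miR-99a, miR-99b and miR-100, of miR-196, and of let-7 with miR-98, in the ADM library (left bar, red) and the BM library (right bar, blue), with 95% exact counting intervals. miR-10 took 4.45% in ADM and 4.56% in BM, while miR-99 and miR-100 took 3.63% in ADM and 7.33% in BM.

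Hoxb8, the textbook target that miR-196 cleaves, pairs with miR-196a-5p along its whole length. One 3′ UTR per coding gene was searched (GENCODE M21, the longest in the basic set), and no mRNA was measured here. The site starts at base 418 of the 3′ UTR of Hoxb8-201 on chromosome 11. Capitals mark Watson-Crick pairs with miR-196a-5p read in the opposite direction.
Hoxb8 site: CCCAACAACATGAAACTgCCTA

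Of its 22 bases 21 form Watson-Crick pairs, and the remaining one, opposite position 5 of the miRNA, is a G:U wobble pair. No other of 20873 genes reached 21 such pairs in an ungapped window, and the next reached 17. For miR-10a-5p the best window in any gene had 18 of 23 pairs and was not in a Hox gene.

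In the authors' deposited table, the ratio of ADM to BM runs over the 10 members from 0.273 for miR-10b-3p to 3.82 for miR-196b-3p, both on 7 reads or fewer per library. No value of a member in that table rests on a replaced 0. Among the 5p arms it gives 0.669 for miR-615-5p, 0.933 for miR-10b-5p and 1.35 for miR-196b-5p.

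Some markers of other cells differed between the libraries beside these results, and the haematopoietic and epithelial ones had too few reads to compare. None of the lists used defines FAPs, so the label was not tested by markers; the 8 mesenchymal rows (miR-143, miR-145a, miR-199a, miR-214) held 8.52% of ADM and 7.35% of BM reads. The higher sum in ADM rests on miR-143-3p (5.35% of ADM and 2.86% of BM reads): the other 7 rows held 3.17% of ADM and 4.49% of BM reads, and 5 of the 8 log2 ratios were below 0, with a list median of -0.24. The 6 myogenic rows (miR-1a, miR-133a, miR-133b, miR-206) summed to 244 reads in ADM and 2315 in BM, of which miR-133a-3p gave 231 in ADM and 2266 in BM, with no row at 0. The 2 endothelial rows (both arms of miR-126) summed to 203 reads in ADM and 88 in BM. Of these, miR-126-5p gave 168 in ADM and 61 in BM, and miR-126-3p gave 35 in ADM and 27 in BM. The 2 haematopoietic rows (miR-150-5p and miR-451a) had 4 reads in ADM and 1 in BM (miR-451a at 0 in BM). The 2 epithelial rows had 1 read in ADM and 2 in BM (miR-141-3p at 0 in ADM, miR-200b-3p at 0 in BM). Other miRNAs sought for the haematopoietic and epithelial lists had no listed row. The part of such other cells in the ratios of the Hox-cluster miRNAs was not tested. Fewer cells that express a miRNA and less of it per cell cannot be told apart in such libraries.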

How the data were processed

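Small RNA was extracted with a mirVana kit and made into libraries with the Illumina TruSeq small RNA kit and gel size selection, per the labels' protocols. The authors deposited, from miRanalyzer per the file headers, miRNA levels as a percent of the reads of a library, and the submitters' processing notes name the build mm10. A second deposited table holds the ratio of ADM to BM percent values and a column headed ln2 that equals the log2 of that ratio, with each 0 replaced by 0.5 read. The sources used here do not give the version or filters of miRanalyzer or its assignment of reads with several matches.

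The smallest value above 0 in a column was taken as 1 read, and 100% of values were whole reads on that scale (within 0.001 of a read). This gave 790617 reads in ADM and 755193 in BM, of which 807 in ADM and 679 in BM lay outside the listed miRNAs. Percent values times 10000 are RPM. Log2 ratios used a pseudocount of 1 RPM, which understates differences of low rows. Ratios and folds printed without a log are of percent values with no pseudocount. Calls needed a mean of at least 10 RPM. Ratio intervals are exact conditional intervals, those of ratios of ratios and arm differences normal on the log scale. The functions were tested on simulated reads. Python 3.11.15, numpy 2.4.6, pandas 2.3.3 and scipy 1.17.1 were used. TMM and median ratio factors were computed with the standard formulas.

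Every member is named; the neighbours in level are the 3 next above and below each miR-10 5p arm, and the lists of relatives are described by counts, median and most abundant member. miRNAs named from the marker and relative lists beyond this, and the relatives shown by sequence, were chosen after their values were seen. Members and lists were chosen with earlier results of these data known.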

Additional observations from a re-analysis of the deposited data

How the results depend on the processing

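Alternatives for the Hox-cluster results numbered 36, of which 26 stayed within the main counting interval or, for counts, within 1.5 times the main count, and 10 did not. The count of members at least 2-fold apart, 0 as reported, was 3 without a level minimum, all of them 3p arms with at most 7 reads, and 1 (miR-615-3p) at 1.5-fold; over all listed miRNAs the count was 105 as reported, 289 without a minimum, 50 at 100 RPM, 179 at 1.5-fold and 47 at 3-fold. TMM shifted log2 ratios by -0.10 and median ratio scaling by 0.06, slightly less for rows of low level because of the pseudocount. Log2 ratios outside their counting interval were those of miR-10b-5p (-0.20 with TMM, -0.036 with median ratio), miR-10a-5p (0.12 and 0.29) and miR-196a-5p (-0.095 with TMM, below 0 instead of above it). miR-196a-2-3p had 0.05 with median ratio scaling, above 0 instead of below it. The summed share had an ADM over BM ratio of 0.915 with TMM, 1.03 with median ratio scaling and 1.12 without miR-10b-5p, against 0.982 as reported. The shifts follow from the scaling factors or the rows left out. No paired analysis was possible because each medium has 1 library. Below the minimum of 10 RPM, a single read is 1.26 RPM in ADM and 1.32 RPM in BM, so 3p arms of miR-10 and miR-196b cannot be compared at this depth.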
